A study of Mus musculus with 108 samples.

Results

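The 49 imprinted genes described here were taken from a fixed list of gene symbols and located by their curated RefSeq positions in GRCm38.p6 (mm10). All 49 were found among the 26089 genes with a curated transcript on chromosomes 1 to 19 and X, in 18 imprinted clusters or single loci. Each gene was described by the chromatin state of the 200-bp bin that holds its transcription start site (TSS), by the 21 bins within 2 kb of the TSS, and by its gene body. The TSS and body were those of the longest curated transcript, and the remaining curated starts, 75 distinct starts in all, are given where they matter.

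An imprinted gene is expressed from the maternal or the paternal copy only, because a control region was methylated in one of the germ lines. The unmethylated copy of such a control region is often a promoter that carries H3K4me3, and many of these promoters start a long noncoding RNA that lies next to silenced neighbours. In adult liver a number of imprinted growth regulators, Igf2 and H19 among them, are shut down after birth. The mice were inbred C57BL/6, so the maternal and paternal copies could not be told apart, and a state label stands for both copies and for all cells of the liver together. Likewise, fewer cells with a mark and less of the mark per cell cannot be told apart.

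ChIP-seq for H3K4me3, H3K27me3, H3K27ac and H3K4me1 was carried out by the study on liver blocks of C57BL/6 female mice that had been fixed in formalin and embedded in paraffin. Of 31 mice and 108 libraries, 25 mice and 88 libraries in 3 groups are compared: SD 3m, 3-month-old mice on standard diet (8 mice, 30 libraries), SD 12m, 12-month-old mice on standard diet (8 mice, 29 libraries), and CR 12m, 12-month-old mice with 30% fewer calories from the age of 3 months (9 mice, 29 libraries). A further group, SD 6m (6 mice, 20 libraries), was not analysed here. The libraries of a group were merged by mark before states were called, so each group has 1 segmentation. A difference between groups therefore cannot be compared with the spread between mice, no test was possible, and both comparisons with SD 3m share its segmentation. How many reads lie behind a state label is unknown, and no interval is given for a share of bins.

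The authors' model has 8 states. State 1 (active TSS) has H3K4me3 and H3K27ac, and state 2 (flanking TSS) has H3K4me1 in addition. States 3 and 4 (active enhancer 1 and 2) have H3K27ac with or without H3K4me1, and state 5 (poised enhancer) has mainly H3K4me1. State 6 is the Polycomb state with H3K27me3. State 7, named by the authors for repeats and lamina-associated domains and as age-related, has weak H3K4me3 and minimal H3K27me3 without the other marks, and state 8 (quiescent) has none of the 4 marks. As a check of the tissue label, the TSS of 8 of 8 hepatocyte genes were in states 1 to 5 in each group. The starts of 8 silent control genes of other tissues were in these states for 0, 0 and 1 genes in SD 3m, SD 12m and CR 12m. Of 14 marker genes of other liver cells, 8, 8 and 7 were in states 1 to 5 in SD 3m, SD 12m and CR 12m. Genome-wide, state 7 covered 1.89%, 11.4% and 4.15% of the bins in SD 3m, SD 12m and CR 12m, and state 6 covered 9.48%, 14.4% and 10.3% in the same order.

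Imprinted TSS lay in active promoter states less often than TSS in general and in states 6 and 7 more often, in each of the 3 groups. In SD 3m, 11 members (22.4%) had their TSS in state 1 or 2, compared to 40.1% of all genes. The values were 10 members (20.4%) against 34.7% in SD 12m and 9 members (18.4%) against 30.7% in CR 12m. State 6 held the TSS of 8 members (16.3%, against 11.0% of all genes) in SD 3m, of 15 (30.6%, against 14.9%) in SD 12m and of 8 (16.3%, against 12.2%) in CR 12m. States 7 and 8 together held 23 members (46.9%), 15 (30.6%) and 23 (46.9%), compared to 30.7%, 26.8% and 28.9% of all genes.

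**Figure D1:**
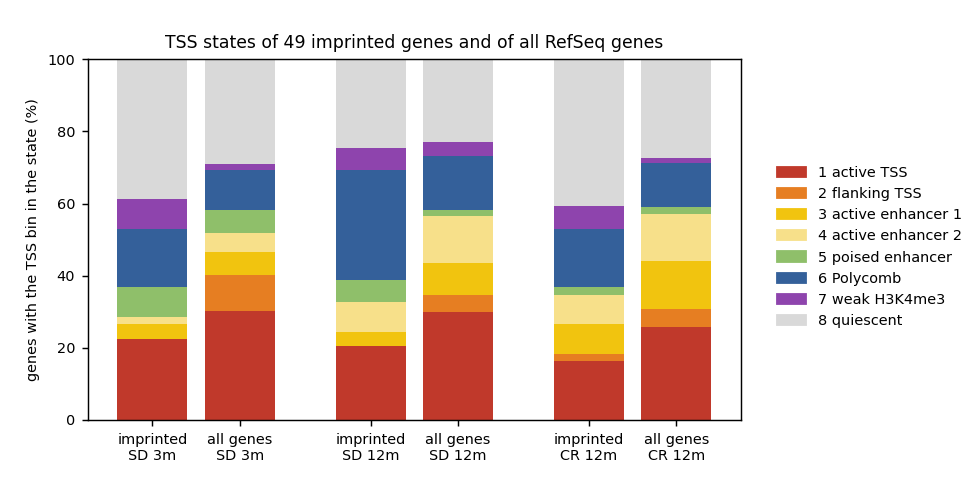
Percent of genes (y axis) whose TSS bin was in each of the 8 states, for the 49 imprinted genes and all 26089 RefSeq genes in the 3 groups; each bar sums to 100% and rests on 1 segmentation. State 6 is widest in the imprinted genes of SD 12m, with 15 of 49 genes.

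The TSS state of a member was the same in all 3 groups for 32 of 49 genes (65.3%), beside 55.4% of all genes. It differed between SD 12m and SD 3m for 10 members (20.4%, background 32.6%), between CR 12m and SD 3m for 12 (24.5%, background 34.7%) and between CR 12m and SD 12m for 12 (24.5%, background 26.7%). Of the unchanged members, 12 were in state 8 in all groups (background 17.2%), 8 in state 1 (background 20.7%), 6 in state 6 (background 6.60%) and 3 in state 7 (background 0.448%). The 3 in state 7 include Peg3 and Usp29, which start in the same stretch. With the states joined into 5 classes (promoter, enhancer, Polycomb, state 7 and quiescent), 9 members differed between SD 12m and SD 3m (background 23.3%), 8 between CR 12m and SD 3m (background 25.3%) and 9 between CR 12m and SD 12m (background 19.8%). By the state in SD 3m, 12 of 19 quiescent members stayed so in SD 12m (background 65.6%) and 17 of 19 in CR 12m (background 75.7%). Enhancer states were kept by 7 of 7 members in SD 12m (background 83.7%) and 6 of 7 in CR 12m (background 83.8%), and state 7 by 3 of 4 in SD 12m (background 53.5%) and 3 of 4 in CR 12m (background 30.1%).

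**Figure D2:**
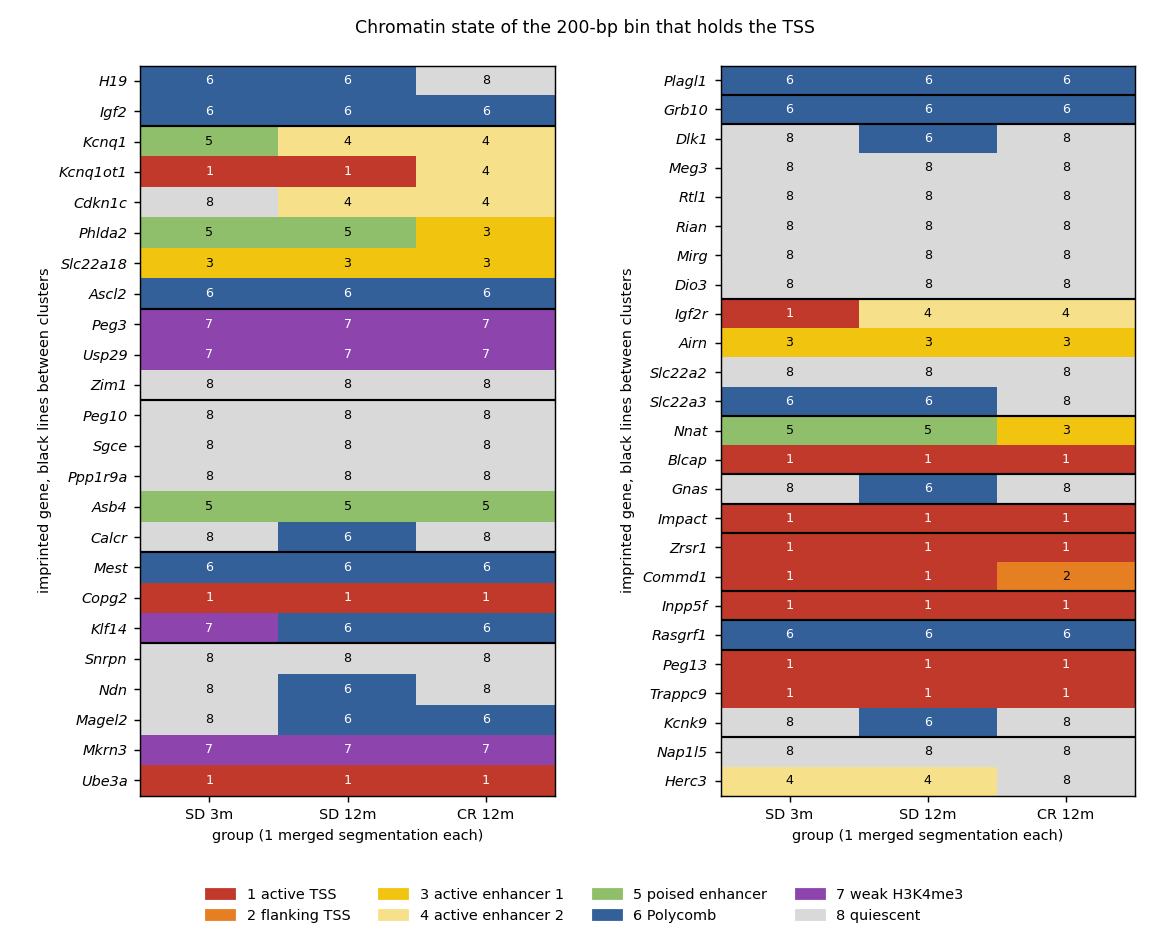
State (number and colour) of the TSS bin of each of the 49 imprinted genes (rows, by cluster) in SD 3m, SD 12m and CR 12m (columns). In 32 rows the colour is the same in all 3 groups, and state 6 (blue) is in 15 rows of SD 12m against 8 rows of each of the other groups.

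State 7 marked the promoters of Peg3, Usp29, Mkrn3, Mest and Snrpn in SD 3m, SD 12m and CR 12m alike. Peg3, a zinc finger protein, and Usp29, a ubiquitin protease, are paternally expressed and start back to back on chromosome 7, Peg3 at chr7:6705960-6730419 on the minus strand and Usp29 at chr7:6730583-6967219 on the plus strand. The unbroken stretch of state 7 that holds both starts was 2.6 kb long in SD 3m, 2.6 kb in SD 12m and 2.0 kb in CR 12m. The window held 2, 1 and 1 bins of state 1 on the side of Peg3, and the body of Usp29 held none. Mkrn3, a paternally expressed ubiquitin ligase (chr7:62417593-62420153, minus strand), started in a stretch of 2.0 kb, 1.8 kb and 1.6 kb in the same order.

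Mest and Snrpn are in this group only through an inner promoter, which the longest transcript does not use. Mest, a paternally expressed hydrolase, lies at chr6:30733506-30748466 on the plus strand. Its outermost start was in state 6 in all groups, and its inner starts 4.54 kb and 4.55 kb downstream lay in state 7 in all groups, in a stretch of 7.0 kb, 5.4 kb and 4.8 kb. Snrpn, which encodes a splicing protein and is expressed from the paternal copy, is annotated from far upstream (chr7:59982495-60450177, minus strand), with the outermost start in state 8 in all groups. Its innermost start, used by 3 curated transcripts, lay 444.98 kb downstream in state 7 in all groups, in a stretch of 5.4 kb, 2.6 kb and 3.0 kb. With any curated start allowed, 5 of 49 members had a start in state 7 in all 3 groups, beside 0.456% of all genes, and 6 of the 75 member starts did, beside 0.399% of all distinct starts. Peg3 and Usp29 share a stretch, as do the inner starts of Mest, so these counts are not of separate places. The background was counted in the same way.

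The sequences of these promoters are shown because their CpG content set them apart from most promoters in state 7. They are from RefSeq (GRCm38.p6), 5′ to 3′ on the strand of the named gene, with each CpG in capitals. The first is the 163 bases between the starts of Peg3 and Usp29 (chr7:6730420-6730582, in the direction of Peg3), and the others are the 250 bases before the start of Mest (chr6:30737803-30738052), Snrpn (chr7:60005200-60005449) and Mkrn3 (chr7:62420154-62420403).
Peg3 and Usp29: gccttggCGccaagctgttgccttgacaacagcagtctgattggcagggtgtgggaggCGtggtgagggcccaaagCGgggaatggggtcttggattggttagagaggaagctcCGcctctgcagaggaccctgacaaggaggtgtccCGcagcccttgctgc
Mest: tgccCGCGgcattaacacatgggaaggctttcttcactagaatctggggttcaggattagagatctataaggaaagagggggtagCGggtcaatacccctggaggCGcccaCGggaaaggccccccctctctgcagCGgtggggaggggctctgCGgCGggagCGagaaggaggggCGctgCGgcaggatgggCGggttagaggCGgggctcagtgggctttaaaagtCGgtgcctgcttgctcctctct
Snrpn: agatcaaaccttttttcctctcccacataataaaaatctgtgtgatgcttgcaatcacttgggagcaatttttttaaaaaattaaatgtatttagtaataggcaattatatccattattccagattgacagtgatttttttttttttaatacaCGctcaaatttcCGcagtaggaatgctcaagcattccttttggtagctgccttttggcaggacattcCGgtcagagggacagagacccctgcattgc
Mkrn3: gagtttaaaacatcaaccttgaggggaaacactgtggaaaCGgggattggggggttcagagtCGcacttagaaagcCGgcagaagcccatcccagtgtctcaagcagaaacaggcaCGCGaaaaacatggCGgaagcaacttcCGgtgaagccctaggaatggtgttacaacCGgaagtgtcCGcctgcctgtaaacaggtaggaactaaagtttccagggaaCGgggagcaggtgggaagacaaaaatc
The 163 bases printed for Peg3 and Usp29 hold 5 CpG, and the printed bases of Mest hold 14, those of Snrpn 3 and those of Mkrn3 10.

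Over the 300 bases from 250 before to 50 after a start, the 6 member promoters in state 7 in all groups held 7 CpG (Snrpn), 13 (Peg3), 15 (Mkrn3), 17 (Usp29) and 17 at each of the 2 inner starts of Mest. Their median GC content was 61.7%, but that of Snrpn was 40.3%, below the median of all state 7 promoters given next. The windows of Peg3 and Usp29 overlap, as do those of Mest. All promoters in state 7 in the 3 groups, 134 in number, had a median of 3 CpG and a GC content of 43.8%, and 40 of the 134 held at least 7 CpG. The median of all 32619 promoters in the RefSeq table was 7 CpG, and promoters in state 1 in all groups had a median of 26. The state 7 promoters of imprinted genes were thus richer in CpG than the median state 7 promoter and, with 7 to 17 CpG, poorer than the median promoter in state 1. The state 7 stretches at the member starts were below the median. Over the 117 genes with the TSS in state 7 in all groups, the median stretch was 14.8 kb, 35.8 kb and 24.8 kb in SD 3m, SD 12m and CR 12m. At the member starts it was 7.0 kb at most, at the inner starts of Mest, which is not among the 117. Short stretches were not particular to members: that of Kat6a was 1.2 kb in each group and that of Ndufa1 3.6 kb, 3.0 kb and 2.6 kb. Genes that share a long stretch each count in the median, such as Pcdhga1 and Pcdhga2 at 101.8 kb in SD 3m. Between SD 3m and SD 12m the stretch became shorter at 1 of the 3 member starts in this set, Mkrn3 (background 31.6%), and between SD 3m and CR 12m at 3 of 3 (background 50.4%). The other starts in this set, of Peg3 and Usp29, share a stretch.

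**Figure D3:**
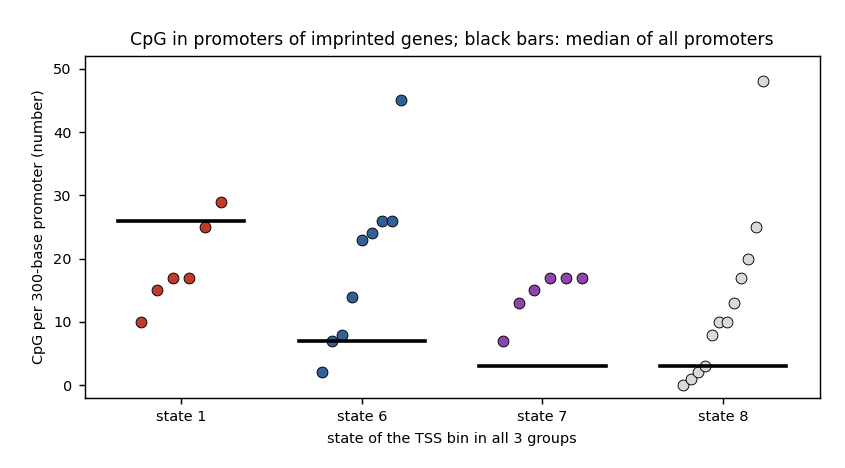
CpG per 300-base promoter (y axis) for the promoters of imprinted genes (points) that were in state 1, 6, 7 or 8 in all 3 groups (x axis), with the median of all promoters of that kind as a black bar. The 6 points in state 7 lie between 7 and 17, all above the bar at 3.

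The letters TGCCGC, the core of the methylated motif bound by ZFP57, a zinc finger protein that keeps imprints, were searched for on both strands (TGCCGC and GCGGCA). They were found in 14 of 55 member promoters (25.5%), from 38 members with an entry, compared to 11.7% of all promoters and 23.8% of those in state 1 in all groups. Within the 300-base windows of the state 7 promoters they were in the 2 overlapping windows of Mest, with 2 matches each, and in that of Snrpn. A match is only a description of the letters.

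Along member gene bodies, the share of state 7 was lower in SD 12m than in SD 3m, while along all gene bodies it was higher. In SD 3m, 1.87% of member body bins were in state 7, against 1.30% of the body bins of all genes. In SD 12m the share was 1.41% in members and 5.11% in all genes, and in CR 12m 1.35% and 1.96%. With each gene weighted equally, the mean body share in state 7 was 5.38%, 3.26% and 2.40% for members against 1.45%, 3.64% and 1.73% for all genes, so in CR 12m the members were below all genes in the pooled bins and above them with equal weights. In CR 12m the pooled share was 2.71% without the members allelic mainly in brain or placenta. Compared to SD 3m, 6 member bodies had more of state 7 in SD 12m (background 7.99%) and 9 had less (background 3.77%), and in CR 12m the numbers were 2 (background 4.02%) and 11 (background 5.17%). Single loci weigh in the pooled share. From SD 3m to SD 12m, body bins in state 7 went from 43 to 4 in Airn and from 82 to 44 in Kcnq1ot1. They rose from 32 to 65 in Snrpn and from 0 to 19 in Zim1. Within 2 kb of member TSS the share was 5.89%, 2.85% and 2.34% in SD 3m, SD 12m and CR 12m, against 1.49%, 3.61% and 1.49% for all genes. From the 19 members with a quiescent TSS in SD 3m, 0 were in state 7 in SD 12m, where 8.06% of all such TSS were, and 0 in CR 12m, where 2.62% were. Over whole clusters, from the first to the last member, state 7 covered more in SD 12m than in SD 3m in 4 of 18 and less in 7. The Snrpn cluster, 3191.4 kb from Ube3a to Mkrn3, was among the 4, and state 7 covered 0.777%, 6.25% and 1.92% in SD 3m, SD 12m and CR 12m.

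Inside Grb10 and Rasgrf1, 1 stretch of state 7 was found at about the same place in each group and others were shorter or lost at 12 months. Grb10, an adaptor of growth factor receptors (chr11:11930499-12037420, minus strand), held a stretch of 4.2 kb, 4.8 kb and 5.2 kb in SD 3m, SD 12m and CR 12m, which began 45.4 kb, 45.4 kb and 44.8 kb downstream of the start. Rasgrf1, an exchange factor for Ras (chr9:89909775-90026979), held one of 3.0 kb, 3.4 kb and 3.2 kb that began 15.0 kb, 14.6 kb and 15.0 kb into the gene. A second stretch in Grb10, of 2.8 kb in SD 3m, was 1.2 kb long in SD 12m and was not found in CR 12m, and a second one in Rasgrf1, of 4.6 kb, was 0.8 kb long in SD 12m and likewise not found in CR 12m. In all, state 7 held 41, 30 and 26 body bins of Grb10 and 38, 21 and 16 of Rasgrf1. Airn had 43, 4 and 25 of its 594 body bins in state 7. The body of Kcnq1ot1 held 82, 44 and 80 bins of state 7, of 418, in SD 3m, SD 12m and CR 12m. Klf14, a transcription factor without introns (chr6:30956021-30958990, minus strand), was the member whose TSS bin left state 7: all 15 bins of its body carried state 7 in SD 3m and state 6 at 12 months, on either diet.

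Many of the control regions that are methylated in the egg lie at the start of a paternally expressed member. For Gnas and Inpp5f, which are imprinted by promoter, they lie at an inner promoter. At 14 such promoters, a list drawn up after the states were seen, the TSS bin was in a state with strong or weak H3K4me3 (1, 2 or 7) for 8, 8 and 6 in SD 3m, SD 12m and CR 12m, against 42.3%, 38.6% and 32.4% of all distinct curated starts. The list is not complete, and the share depends on which starts are in it. For Gnas it holds exon 1A but not the start 13.54 kb downstream of the outermost one, which was in state 8 in all groups. It was so in all 3 groups for 6 of 14 (background 29.5%): Peg3, Mest and Snrpn in state 7, and Impact, Peg13 and Zrsr1 in state 1. The other 8 were of several kinds. Kcnq1ot1 and exon 1A of Gnas were in state 1 in SD 3m and SD 12m and in state 4 in CR 12m. Airn, Nnat and the inner promoter of Inpp5f were in enhancer states in all groups, Plagl1 in state 6, and Nap1l5 and the shared start of Peg10 and Sgce in state 8.

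The TSS of 8 members stayed in state 1. Impact, a paternally expressed regulator of translation, had the longest stretch, 5.4 kb, 4.2 kb and 3.4 kb in SD 3m, SD 12m and CR 12m. Peg13 (chr15:72805602-72810324, minus strand), a paternally expressed noncoding RNA inside Trappc9, followed with 3.0 kb, 3.4 kb and 3.0 kb. Zrsr1 (chr11:22972005-22976496), a splicing factor gene that lies within Commd1, had 1.6 kb, 1.8 kb and 1.4 kb. The other 5, Ube3a, Copg2, Blcap, Inpp5f and Trappc9, are broadly expressed genes, and their stretches were from 0.6 kb (Blcap, in each group) to 1.4 kb (Ube3a in SD 3m and CR 12m). Within 2 kb of the starts of Impact and Peg13 no bin was in state 2 or 3 in any group, whereas the windows of Zrsr1 and of the other 5 genes held bins of state 2 or 3 in every group.

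**Figure D4:**
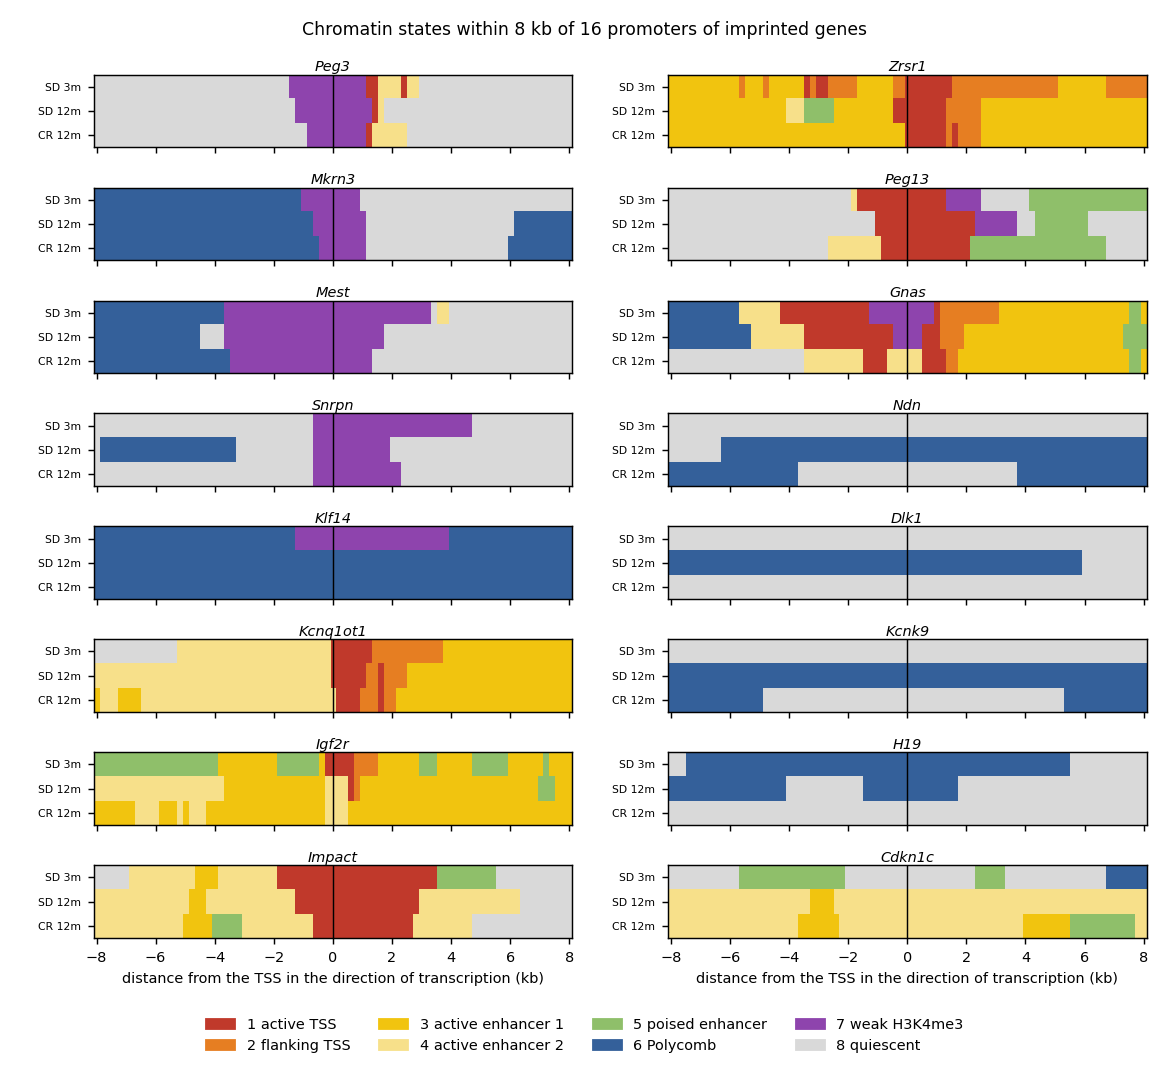
States (colours) within 8 kb of 16 promoters of imprinted genes, by distance from the TSS in the direction of transcription (x axis, kb), with 1 row for each of the 3 groups; Mest, Snrpn and Gnas are drawn at their innermost curated start. State 7 (purple) lies over the start of Peg3, Mkrn3, Mest and Snrpn in each row, and state 6 (blue) covers Ndn, Dlk1 and Kcnk9 in the SD 12m row.

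State 6 appeared at imprinted promoters mainly in SD 12m. Ndn, Dlk1, Calcr, Kcnk9 and the outermost promoter of Gnas had the TSS in state 6 in SD 12m and in state 8 in both other groups, which makes 5 of 49 members (10.2%), beside 2.92% of all genes. Of the 19 members quiescent in SD 3m, 6 were in state 6 in SD 12m (31.6%, background 20.8%) and 1 in CR 12m (5.26%, background 14.0%). All 8 members in state 6 in SD 3m were in it in SD 12m (background 73.4%), and 6 of 8 were in CR 12m (background 65.7%). Among the 8 silent control genes, state 6 held 4, 8 and 5 in SD 3m, SD 12m and CR 12m, so that state 6 was also most frequent in SD 12m at genes outside imprinted clusters, and the part of such a shift in these counts was not tested.

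Within 2 kb of member TSS, state 6 covered 18.0%, 31.4% and 16.7% of the bins in SD 3m, SD 12m and CR 12m, against 12.1%, 15.6% and 12.7% for all genes. Without the distal chromosome 7 clusters of H19/Igf2 and Kcnq1, the value in SD 3m was 14.0%. Over member gene bodies the shares were 3.74%, 7.83% and 4.00%, against 8.34%, 12.7% and 9.53% for all genes, with all bins pooled, so that long genes weigh most. With each gene weighted equally, the mean body share in state 6 was 9.40%, 18.9% and 12.1% for members and 10.2%, 12.6% and 10.2% for all genes. State 6 was thus less frequent along member bodies than along all gene bodies in the pooled bins, and with equal weights this direction turned in SD 12m and CR 12m.

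Ndn and Magel2, paternally expressed genes of the MAGE family, showed the change over a whole domain. Ndn (chr7:62348277-62349928) lay in 620.4 kb of state 8 in SD 3m and in 72.0 kb of state 6 in SD 12m. In CR 12m, 7.4 kb of state 8 remained over Ndn, with state 6 on both sides. Magel2 (chr7:62376979-62381640) lay in the same 72.0 kb in SD 12m, and its whole body of 25 bins carried state 6 at 12 months on either diet and state 8 in SD 3m. State 6 already lay next to its start in SD 3m, in 10 of the 21 bins within 2 kb. Mkrn3, the neighbour downstream, kept its state 7 promoter, and at 12 months state 8 lay between this promoter and the domain on either diet. Within 2 kb of the Mkrn3 start, 5, 7 and 8 bins were in state 6 in SD 3m, SD 12m and CR 12m. These bins lay upstream of Mkrn3, on the side away from the domain.

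Kcnk9, a potassium channel gene expressed from the maternal copy in brain (chr15:72506986-72547699, minus strand), had 0, 205 and 63 of 205 body bins in state 6 in SD 3m, SD 12m and CR 12m. All 21 bins around its TSS were in state 8 in SD 3m and CR 12m and in state 6 in SD 12m. Dlk1, a paternally expressed member of the Notch ligand family that marks immature cells (chr12:109452823-109463336), had 0, 33 and 0 of 53 body bins in state 6. Calcr, the calcitonin receptor gene (chr6:3685680-3764713, minus strand), had 0, 67 and 0 of 396. At these 3 genes the state 6 stretch over the start in SD 12m was 85.0 kb, 15.2 kb and 23.8 kb long, and in the other groups no bin within 2 kb of these starts was in state 6.

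H19 and Slc22a3 were in state 6 in SD 3m and SD 12m and in state 8 in CR 12m (2 of 49 members, beside 1.38% of all genes). H19, a maternally expressed noncoding RNA that is silenced in liver after birth (chr7:142575530-142578146, minus strand), had 14, 9 and 0 of 14 body bins in state 6 in SD 3m, SD 12m and CR 12m. The 8 kb upstream of H19, where its control region lies, held 38, 28 and 0 of 41 bins in state 6 in SD 3m, SD 12m and CR 12m, and the remaining bins were in state 8. Igf2, the paternally expressed growth factor on the other side (chr7:142650768-142666816, minus strand), did not share this loss: all 82 bins of its body and all 4 of its curated starts were in state 6 in each group, in a stretch of 143.8 kb, 93.2 kb and 111.2 kb in SD 3m, SD 12m and CR 12m. Slc22a3, an organic cation transporter gene expressed from the maternal copy in placenta (chr17:12419972-12507704, minus strand), had 269, 71 and 30 of 440 body bins in state 6 in SD 3m, SD 12m and CR 12m. Its neighbour Slc22a2 started in state 8 in all groups, with 50, 58 and 29 of 223 body bins in state 6.

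Besides Igf2, the TSS of Ascl2, Plagl1, Grb10, Rasgrf1 and the outermost start of Mest were in state 6 in every group. Ascl2, a transcription factor needed in the placenta, was in state 6 over all 13 bins of its body in each group. Plagl1, a paternally expressed zinc finger protein of the fetal growth network (chr10:13090832-13131694), had 32, 15 and 120 of 205 body bins in state 6 in SD 3m, SD 12m and CR 12m, the highest of these being that of CR 12m. Grb10 had 3, 139 and 36 of 536, with its highest value in SD 12m, while 206, 181 and 214 of its bins were in state 3. Over bodies, 13 members had more of state 6 in SD 12m than they had in SD 3m (background 12.2%) and 7 had less (background 9.51%), and in CR 12m the numbers were 9 (background 9.95%) and 7 (background 10.7%).

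The Kcnq1 cluster on distal chromosome 7 had more bins in enhancer states with acetylation at 12 months than at 3 months. Kcnq1ot1 is the paternal noncoding RNA that silences this cluster in cis and starts within Kcnq1, and Cdkn1c, Phlda2 and Slc22a18 are expressed from the maternal copy. From Ascl2 to Phlda2, 535.7 kb, states 3 to 5 covered 52.6%, 70.1% and 66.7% of the bins in SD 3m, SD 12m and CR 12m. Within these, state 5 covered 30.3%, 5.64% and 9.44%, and state 4 covered 3.96%, 33.7% and 17.2%. State 3 covered 18.4%, 30.8% and 40.1%, the most of these states in CR 12m. In the whole genome state 5 covered 5.40%, 2.70% and 2.39% and state 4 covered 6.29%, 9.21% and 8.08%. State 3 covered 9.29%, 9.90% and 11.7% there, and the directions from SD 3m to each group at 12 months were the same. Of the bins of the cluster, 49.8% (SD 12m) and 46.2% (CR 12m) had another state than they had in SD 3m, compared to 31.9% and 24.2% of the genome.

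Cdkn1c, which encodes the cell cycle inhibitor p57 (chr7:143458339-143461050, minus strand), had all 21 bins around its TSS in state 8 in SD 3m and all 21 in state 4 in SD 12m and in CR 12m. None of these bins was in state 1, 2 or 7 in any group. Slc22a18, a transporter gene (chr7:143473789-143499334), had 83, 20 and 0 of 129 body bins in state 8 in SD 3m, SD 12m and CR 12m, where 125 were in state 3. Phlda2, which limits placental growth (chr7:143501548-143502524, minus strand), had its TSS in state 5 in SD 3m and SD 12m and in state 3 in CR 12m. Kcnq1, a potassium channel gene (chr7:143107254-143427042), started in state 5 in SD 3m and in state 4 in both groups at 12 months.

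The start of Kcnq1ot1 (chr7:143213111-143296547, minus strand) left state 1 by a shift of 1 bin. State 1 began 0.1 kb upstream of the TSS in SD 3m and SD 12m and 0.1 kb downstream of it in CR 12m, so the TSS bin was in state 4 there, with 5 bins of state 1 left within 2 kb, compared to 7 and 7. Igf2r, the receptor that carries IGF2 to lysosomes and is expressed from the maternal copy (chr17:12682406-12769706, minus strand), showed a wider loss: 5 bins of state 1 and 4 of state 2 in SD 3m, 1 and 1 in SD 12m, and 0 and 0 in CR 12m. Its TSS bin was in state 1 in SD 3m and in state 4 in both groups at 12 months, while states 3 to 5 covered 61.1%, 74.4% and 79.6% of its body. Among members in state 1 or 2 in SD 3m, 1 of 11 was in another state in SD 12m (background 16.5%) and 2 of 11 in CR 12m (background 25.9%). Of the 38 members in other states, 0 moved to state 1 or 2 in SD 12m (background 2.07%) and 0 in CR 12m (background 1.70%).

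These 2 promoters are printed because they are the members whose TSS bin left states 1 and 2. They are the 250 bases before the start of Kcnq1ot1 (chr7:143296548-143296797) and of Igf2r (chr17:12769707-12769956), both in GRCm38.p6 and 5′ to 3′ on the minus strand, with each CpG in capitals.
Kcnq1ot1: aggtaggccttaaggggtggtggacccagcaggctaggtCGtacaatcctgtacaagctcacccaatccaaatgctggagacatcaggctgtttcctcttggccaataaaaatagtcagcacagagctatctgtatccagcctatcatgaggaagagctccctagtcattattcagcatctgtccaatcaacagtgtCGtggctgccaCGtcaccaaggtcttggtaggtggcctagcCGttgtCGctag
Igf2r: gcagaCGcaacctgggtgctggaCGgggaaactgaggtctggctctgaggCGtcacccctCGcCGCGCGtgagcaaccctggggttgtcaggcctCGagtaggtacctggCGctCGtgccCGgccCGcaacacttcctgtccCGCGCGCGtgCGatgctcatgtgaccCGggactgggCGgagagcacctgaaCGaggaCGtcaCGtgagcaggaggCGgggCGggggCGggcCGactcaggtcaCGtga
The printed bases hold 5 CpG in Kcnq1ot1 and 27 in Igf2r, and neither holds TGCCGC on either strand.

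Airn (chr17:12741311-12859884) is the paternal noncoding RNA that overlaps the start of Igf2r in antisense, and it started in an enhancer state. Its TSS bin was in state 3 in all groups. Within 2 kb of it, states 1 and 2 were at 0 bins in SD 3m, at 0 and 1 bin in SD 12m, and at 3 and 4 bins in CR 12m, where a stretch of 0.6 kb of state 1 lay from 0.3 kb to 0.9 kb downstream of the start. The body of Airn covers the start of Igf2r, so bins of state 1 and 2 in its body further downstream are those of the Igf2r promoter.

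Gnas, which encodes the stimulatory G protein and has promoters used on different parental copies (chr2:174284320-174346744), showed states that differed between its curated starts. The outermost start, of the maternal transcript Nesp, was in states 8, 6 and 8 in SD 3m, SD 12m and CR 12m. The start 13.54 kb downstream was in state 8 in all groups, those 43.43 kb and 43.45 kb downstream (exon 1A) in states 1, 1 and 4, and that 45.69 kb downstream, of the G protein itself, in states 7, 7 and 4. The stretch of state 1 over exon 1A was 3.0 kb in SD 3m and 3.0 kb in SD 12m, and that of state 7 over the last start was 2.2 kb and 1.0 kb. In CR 12m, state 1 was still found near these starts, from 44.3 kb to 45.1 kb and from 46.3 kb to 47.1 kb downstream of the outermost start. In each group, bins of states 1 and 2 lay downstream of the last start, so the label of a start bin does not describe the whole promoter. Over the body of Gnas, state 6 held 31, 102 and 43 of 313 bins in SD 3m, SD 12m and CR 12m.

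Pairs in which a paternally expressed gene lies inside a host also differed. Zrsr1 and its host Commd1 (chr11:22899728-22982284, minus strand), a protein of copper handling, had every bin in states 1 to 5 in all groups. The TSS of Commd1 was in state 1, 1 and 2, and 296, 280 and 344 of its 414 body bins were in state 3. Nnat (chr2:157560078-157562525), the gene of a small membrane protein within Blcap, started in states 5, 5 and 3, while Blcap kept 0.6 kb of state 1. Peg13 and its host Trappc9 both started in state 1, and 2254, 2299 and 2221 of the 2359 body bins of Trappc9 were in state 8. Nap1l5, of the nucleosome assembly family (chr6:58905233-58907126, minus strand), had all 10 body bins in state 8 in each group, within its host Herc3. Herc3, a ubiquitin ligase, started in states 4, 4 and 8, with 3, 3 and 4 bins of state 1 within 2 kb of this start, so the bin at the TSS and the active promoter did not coincide.

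Quiescent members formed the largest set, 12 genes with the TSS in state 8 in all groups. Of these, 5 were in the Dlk1/Meg3 cluster: Meg3, Rian and Mirg, the maternal noncoding RNAs, and Rtl1 and Dio3, which are paternal coding genes. The bodies of 6 members (12.2%) were wholly in state 8 in all groups, beside 11.5% of all genes. The 20 kb upstream of Meg3 were not quiescent throughout: of 101 bins, state 5 held 35, state 3 held 12 and state 7 held 11 in SD 3m. State 5 held 23 of these bins in SD 12m, and in CR 12m state 4 held 31, state 3 held 15 and state 5 held 12. Over the cluster, 828.3 kb, states 3 to 5 covered 14.9%, 15.0% and 22.0% in SD 3m, SD 12m and CR 12m. The other 7 were Peg10, Sgce, Ppp1r9a, Zim1, Slc22a2, Nap1l5 and the outermost start of Snrpn. Ppp1r9a, an actin-binding protein (chr6:4902975-5165661), had 1.4 kb of state 1 from 1.0 kb to 2.4 kb downstream of its start in SD 3m and no bin of state 1 in its body in the other groups. Sgce, a sarcoglycan gene (chr6:4674350-4747204, minus strand), had 0, 124 and 151 of 366 body bins in state 6 in SD 3m, SD 12m and CR 12m. Asb4, part of a ubiquitin ligase, was the only member with its TSS in state 5 in each group.

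**Figure D5:**
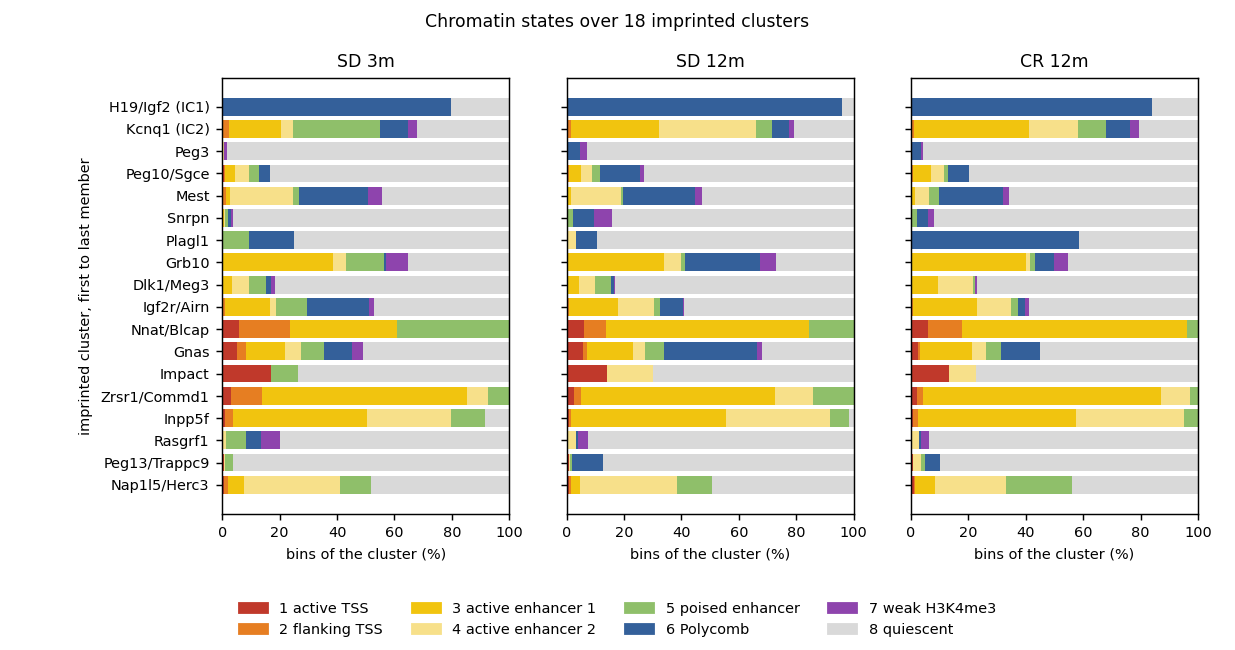
Percent of the bins (x axis) in each of the 8 states over the 18 imprinted clusters, from the first to the last member, in the 3 groups (panels). The H19/Igf2 cluster is state 6 over 79.7% to 96.1% of its bins, Zrsr1/Commd1 and Nnat/Blcap are in states 1 to 5 throughout, and the Peg3, Snrpn and Peg13/Trappc9 clusters are mostly in state 8.

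Enhancer states filled fewer bodies of members than of all genes. At least 50% of the body was in states 3 to 5 for 11, 12 and 13 members in SD 3m, SD 12m and CR 12m, beside 40.3%, 45.4% and 46.8% of all genes, and 9 members (18.4%, background 36.8%) passed this level in all 3 groups. Pooled over body bins, states 3 to 5 covered 21.6%, 22.3% and 22.7% in members and 34.8%, 35.5% and 36.5% in all genes. Inpp5f, a phosphatase gene, had 87.8%, 96.7% and 97.7% of its body in these states, and Ube3a, the ubiquitin ligase of the Snrpn cluster, 71.8%, 68.0% and 63.8%. Copg2, a coat protein gene that overlaps Mest at its end, had 35.1%, 25.3% and 11.2%. The leading state of the body differed between SD 12m and SD 3m for 17 members (34.7%, background 30.2%), between CR 12m and SD 3m for 17 (34.7%, background 29.9%) and between CR 12m and SD 12m for 12 (24.5%, background 20.4%).

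Paternally and maternally expressed members were found in most states. Of 22 paternally expressed members, 7, 7 and 6 had the TSS in state 1, 2 or 7 in SD 3m, SD 12m and CR 12m, compared to 7, 5 and 5 of 25 maternally expressed ones. States 6 and 8 held 13, 13 and 13 paternally and 13, 13 and 14 maternally expressed members, and Gnas and Inpp5f, imprinted by promoter, were left out of both sets. States 1 to 5 held 6, 6 and 6 paternally and 11, 12 and 11 maternally expressed members, and the 3 members with the TSS in state 7 in all groups were paternally expressed. The expressed copy was not read from these livers. Of the members, 29 are allelic outside brain and placenta, and the split was not repeated for these alone, so it does not describe expression by copy in liver.

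Genes that keep imprints were mostly in active states. Of 21 genes, 18 were in states 1 to 5 in each group, beside 58.2%, 58.3% and 58.9% of all genes in SD 3m, SD 12m and CR 12m. Of the 49 imprinted genes, 18, 19 and 18 were in these states. Zfp445 and Trim28, which act at the methylated control regions, and Smchd1, Ezh2, Eed and Suz12, which silence chromatin, were in state 1 in all groups. Zfp57 was in state 6 in SD 3m and in state 8 in SD 12m and CR 12m, and Dnmt3l and Nlrp5, known from germ cells, were in state 8 in all groups. Dnmt1, which copies methylation, was in state 4 in all groups. Compared to SD 3m, the TSS state differed for 4 of 21 genes in SD 12m and for 5 in CR 12m (23.8%), below the background of 32.6% and 34.7%. Of 32 further genes that are reported as imprinted or lie in the clusters, 13 differed in SD 12m (40.6%) and 16 of 32 in CR 12m, above the same background, whereas the 49 members were below it. Of these 32 genes, 22, 21 and 21 were in states 1 to 5 in SD 3m, SD 12m and CR 12m.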

How the data were processed

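The authors merged the ChIP-seq libraries of a group by mark, called 8 chromatin states in 200-bp bins with ChromHMM, and deposited 1 segmentation per group with the state number (a score-like label, used here only as a category) of each interval, in mm10. Per the labels' processing notes, BWA 0.6.2-r126 and SAMtools 0.1.18 were used. Each segmentation names its group, which the study's methods describe. The authors' state names are used, except that state 7 (their repeats/cLAD, or age-related, state) is called by its number, or by its weak H3K4me3 in figures. Read depth of the merged files is not given in the sources used here.

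Each of the 3 segmentations was expanded to 13168874 bins on chromosomes 1 to 19 and X, and bins were assigned to curated RefSeq transcripts (GRCm38.p6) with Python 3.11.15, numpy 2.4.6 and pandas 2.3.3, in scripts tested on simulated data. With 1 segmentation per group there was no test. Counts are given beside the same count over all genes, as the background. The members and lists were chosen with earlier results of these data known. Members were described singly where the TSS state differed between groups, was 1 or 2 in any group, or where the body was at least 50% states 3 to 5 or state 7. Other details on single members, the 14 control-region promoters and the printed state 7 promoters were chosen after their values were seen. The RefSeq promoter table had no entry for H19, Kcnq1, Cdkn1c, Peg10, Sgce, Klf14, Rtl1, Impact, Peg13, Trappc9 and Kcnk9. Zfp264 was not matched, and a planned search for the CTCF motif upstream of H19 was not run.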

Additional observations from a re-analysis of the deposited data

How the results depend on the processing

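No paired analysis was possible because each group has 1 segmentation of merged libraries, and for the same reason no library could be left out. A count was taken as unchanged within 1.5 times, and a share of bins within its 95% Wilson interval over bins, which are not independent. Of 75 alternatives for 12 counts, 59 left the count unchanged and 16 moved it, and of 66 alternatives for 12 shares, 45 left the share unchanged and 21 moved it. All 16 moved counts come from sets with fewer members (29, 35 or 41). Counts were compared without regard to the size of the set, so a smaller set can move a count at a similar share. For SD 12m against SD 3m, 10 of 49 became 6 of 29. Without the members that are allelic mainly in brain or placenta (29 left), the TSS state differed for 6 members between SD 12m and SD 3m, 7 between CR 12m and SD 3m and 7 between CR 12m and SD 12m. In that set, state 1 or 2 held 4, 3 and 2 members in SD 3m, SD 12m and CR 12m, state 6 held 9 starts (SD 12m) and 5 (CR 12m), and states 7 and 8 held 14 (SD 3m) and 14 (CR 12m). The body share of state 6 was 2.52%, 8.72% and 5.43% there and that of state 7 was 3.54%, 2.49% and 2.71%. Without starts within 400 bp of a state boundary (35 members), 7 differed between CR 12m and SD 3m, and state 1 or 2 held 2, 2 and 2. Starts in short stretches, as most of those in state 1 are, are dropped by this choice itself. Without the H19/Igf2 and Kcnq1 clusters (41 members), 7 differed between CR 12m and SD 3m, state 6 held 5 starts and 14.0% of the TSS windows in SD 3m, and the body share of state 7 was 1.56% (SD 3m) and 0.988% (CR 12m). With each member weighted equally, body shares were 9.40%, 18.9% and 12.1% for state 6 and 5.38%, 3.26% and 2.40% for state 7. Against the same mean over all genes, this turned the direction for state 6 in SD 12m and CR 12m and for state 7 in CR 12m. Without the first 2 kb of the body, state 6 covered 3.41%, 7.19% and 3.68%. With bins of overlapping genes counted once for each member, body state 7 covered 2.31%, 1.65% and 1.76%. The cause of these differences was not tested. Depth, and with it the precision of a label, is unknown.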
